A study of Mus musculus with 30 samples.

Results

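Pdx1 was made to act in mouse alpha-cells whose beta-cell neighbours were left intact, and the comparison covered 13 of the 30 libraries of the series. All were chosen by their labels alone: 5 carried the label aPdx1OE noDT (alpha Pdx1) and 8 the label ctl noDT (alpha). Each library was bulk RNA-seq of islet cells sorted by fluorescence, from mice 3 months old. Alpha Pdx1 mice carried Glucagon-rtTA, TetO-Cre, R26YFP and CAG-Pdx1, so that the glucagon promoter drives rtTA, and Cre then acts where rtTA does. Alpha mice carried Glucagon-Venus and no Pdx1 transgene. The reporter and driver alleles thus differ between the groups together with Pdx1, and their effects cannot be told apart from that of Pdx1. A further 7 libraries of Insulin-mCherry beta-cells (beta) served to sort genes. Diphtheria toxin given at 2 months to mice that also carried RIP-DTR, in which the rat insulin promoter drives the toxin receptor, gave 2 further groups taken 30 days later. These were 6 libraries with the Pdx1 alleles (alpha Pdx1 DT) and 4 with Glucagon-Venus (alpha DT), which share no library with the main comparison. The labels do not say that libraries came from separate animals, so p-values measure the spread between these samples, which may be technical.

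Pdx1 is a homeodomain transcription factor that binds DNA at a TAAT core. It builds the pancreas in the embryo and in the adult islet is kept mainly in beta- and delta-cells, where it acts on the insulin genes, on Iapp and on genes of glucose sensing. Alpha-cells make glucagon from Gcg and are kept in their identity by transcription factors of their own. Forcing Pdx1 into alpha-cells is a classical test of how firmly that identity is held.

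The values were the authors' quantile-normalized log2 values, in which every library has the same distribution with quartiles of 5.95, 8.55 and 10.37 and a common maximum of 22.56. The most abundant genes therefore take fixed steps, and a difference in a hormone gene is one of rank within the library and not of amount. Read depth is not known from these values. Whether levels were scaled by gene length is not given in the sources used here, so they are compared within a gene and not between genes. Differences are alpha Pdx1 minus alpha on the log2 scale with their standard error (±), and p-values are limma's, two-sided and adjusted by Benjamini-Hochberg over the 16633 genes tested, with a threshold of 0.05.

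The transgene was checked first. Pdx1 (chr5:147269959-147275848, plus strand, GRCm38) had values of 11.60, 10.78, 11.83, 11.64 and 8.61 in the 5 alpha Pdx1 libraries, against a lowest of 3.66, a median of 5.03 and a highest of 11.23 in the 8 alpha libraries. Reads of the transgene and of the resident gene are not separated in the table. The groups overlapped through the library labelled alpha 8, which held the 11.23. The other 7 alpha libraries reached at most 5.61, and the lowest alpha Pdx1 value came from the library labelled alpha Pdx1 5. The Pdx1 difference was 5.36 ± 1.07 (adjusted p = 0.00604), and the alpha Pdx1 mean of 10.89 ± 1.34 (SD, n = 5) lay beside 11.20 ± 0.48 in beta (SD, n = 7).

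The libraries labelled alpha Pdx1 5 and alpha 8 stand apart from their groups in the measured genes. Among 523 genes that rose in a fit that left both out, the library labelled alpha Pdx1 5 lay nearer the alpha Pdx1 mean at 380 (72.7%), and the library labelled alpha 8 also lay nearer the alpha Pdx1 mean at 462 (88.3%). Among the 320 genes that fell in that fit, the library labelled alpha Pdx1 5 lay nearer the alpha Pdx1 mean at 170 (53.1%) and the library labelled alpha 8 at 141 (44.1%). Over the 16633 genes the library labelled alpha 8 correlated with the other alpha Pdx1 libraries at r from 0.936 to 0.958, and with the other alpha libraries at r from 0.918 to 0.947. Both were kept under their labels in the main comparison, and results that rest on them are given with and without them. Outside the comparison, the library labelled alpha Pdx1 DT 5 had Pdx1 at 5.51 and correlated at 0.993 with the library labelled alpha 4, above the highest value of 0.968 between any pair of alpha libraries. The libraries labelled beta 1 and beta 5 had Gcg as their top gene. These 5 are the doubted libraries below.

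Promoters of the genes on which the results turn are printed here, because a homeodomain core can be read in them directly. Iapp encodes amylin, the peptide secreted with insulin. Ins1 is one of the rodent insulin genes, and Tagln3 encodes a neuronal protein of the calponin family. The windows hold the 250 bases before the start of each gene (RefSeq, GRCm38.p6), 5′ to 3′ on the gene's strand, at chr6:142298175-142298424 (plus) for Iapp, chr19:52264047-52264296 (plus) for Ins1 and chr16:45724532-45724781 (minus) for Tagln3. Starts here are those of RefSeq, while gene coordinates elsewhere are from GENCODE and can differ. By GENCODE, Tagln3 begins at 45724608 on the minus strand, so part of its window lies inside the gene. Capitals mark TAAT on either strand, so TAAT or ATTA as printed, with overlapping matches counted separately.
Iapp: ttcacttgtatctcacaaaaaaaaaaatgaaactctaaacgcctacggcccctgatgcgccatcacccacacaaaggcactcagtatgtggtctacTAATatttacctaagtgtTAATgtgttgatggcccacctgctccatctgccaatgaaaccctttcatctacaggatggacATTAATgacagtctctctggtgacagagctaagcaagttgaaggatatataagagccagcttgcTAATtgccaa
Ins1: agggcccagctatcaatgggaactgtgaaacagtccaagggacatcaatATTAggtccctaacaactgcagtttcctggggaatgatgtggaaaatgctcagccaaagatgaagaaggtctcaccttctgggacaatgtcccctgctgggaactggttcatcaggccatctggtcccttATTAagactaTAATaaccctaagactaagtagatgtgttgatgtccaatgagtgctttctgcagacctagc
Tagln3: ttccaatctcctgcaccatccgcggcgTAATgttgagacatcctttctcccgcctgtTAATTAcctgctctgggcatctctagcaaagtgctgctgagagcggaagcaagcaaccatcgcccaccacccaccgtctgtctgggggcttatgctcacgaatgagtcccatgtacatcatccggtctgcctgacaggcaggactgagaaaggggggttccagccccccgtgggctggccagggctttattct
The Iapp window held 5 matches, the nearest beginning 10 bases before the start, and 5.54% of all 32851 windows held at least as many, against 1.54% of the windows of tested genes. The Ins1 and Tagln3 windows held 3 each, and 17.3% of all windows held at least 3, against 7.2% of those of tested genes. At least 1 match stood in 54.9% of all windows. Among the tested genes with a window, 4044 of 10257 (39.4%) held at least 1 match, and among the risers that beta-cells also hold higher it was 45 of 119 (37.8%). At least 3 matches stood in 7.2% of those tested windows and in 15 of the 119 (12.6%), and at least 5 in 1.54% and 4.2%. Other risers had at least 3 in 16 of 135 windows (11.9%) where beta and alpha did not differ. Risers lower in beta had them in 3 of 19 (15.8%). Among fallers it was 4 of 29 (13.8%) for those lower in beta, 1 of 49 (2.04%) for those not differing and 0 of 6 for those higher in beta. These shares are a description, with no test. A match describes the letters and is not a binding site.

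With all 13 libraries, 392 of 16633 genes rose in alpha Pdx1 (2.36%) and 329 fell (1.98%). The median difference over all tested genes was 0.03. Sorted by the beta minus alpha difference, with a cut of 1 on the log2 scale beside the threshold, 157 were beta-like risers, 122 were alpha-loss fallers and 442 were neither. The last comprised 207 risers and 197 fallers that did not differ between beta and alpha by this rule, 28 risers that were lower in beta and 10 fallers that were higher in beta. Without the libraries labelled alpha Pdx1 5 and alpha 8, 523 genes rose (3.15%) and 320 fell (1.93%), and 249 were beta-like risers and 158 alpha-loss fallers. At the edge of the cut, Atp8b1 was sorted as a beta-like riser with a beta minus alpha difference of 1.033 and Hepacam2 just missed it with 0.989, both named for that position. Likewise Gm7476 was taken as an alpha-loss faller with -1.009, and Gm2000 was not with -0.997.

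**Figure D1:**
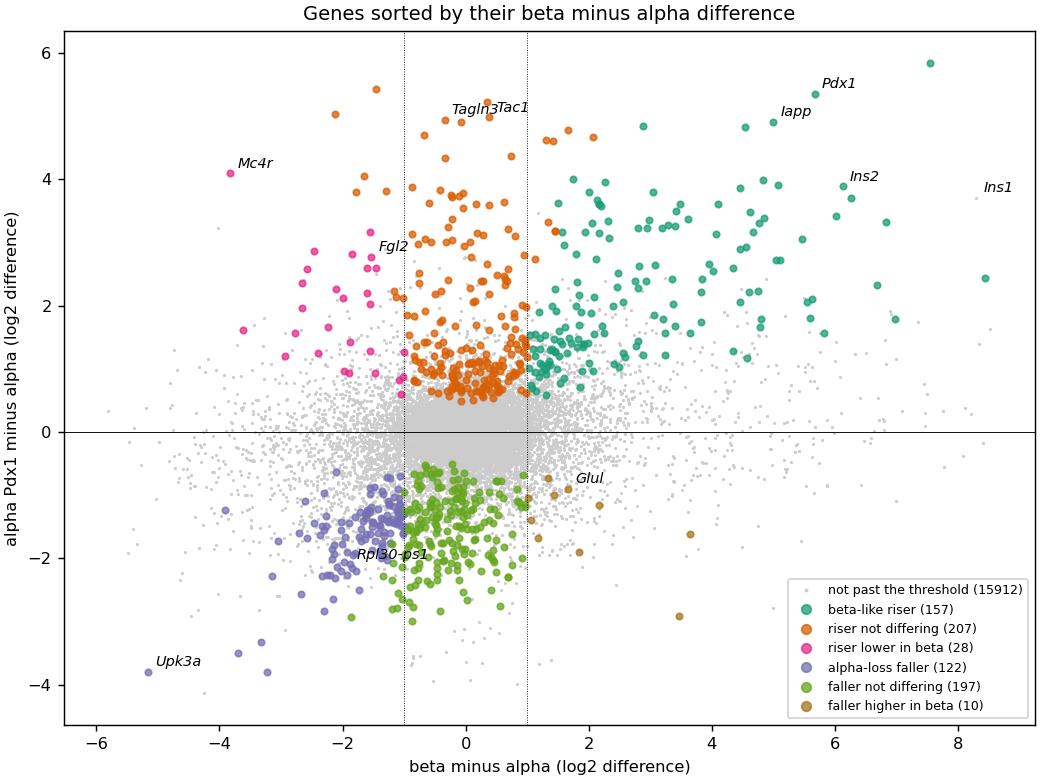
Each point is a gene, with the beta minus alpha log2 difference on the horizontal axis and the alpha Pdx1 minus alpha log2 difference on the vertical axis. Colours give the class and dotted lines the cut of 1. Beta-like risers (157) fill the upper right, and Tagln3, Tac1 and Mc4r rose without being higher in beta.

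Of the genes that beta-cells held higher than alpha-cells (1606, or 9.66% of those tested), 157 rose in alpha Pdx1 (9.78%), 10 fell (0.623%) and 1439 did not pass. Of those that beta-cells held lower (1797, or 10.8% of those tested), 122 fell (6.79%), 28 rose (1.56%) and 1647 did not pass. Over all tested genes 2.36% rose and 1.98% fell. Of the 13230 that did not differ between beta and alpha by the rule, 1.56% rose and 1.49% fell. The alpha Pdx1 minus alpha and beta minus alpha differences use the same alpha libraries, which ties their signs together. Sorted instead by beta minus alpha DT, which shares no library with the alpha group, 159 of 1751 beta-higher genes rose (9.08%) and 79 of 1594 beta-lower genes fell (4.96%). The beta-like risers had a median level of 9.35 in alpha Pdx1, 10.19 in beta and 7.06 in alpha.

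**Figure D2:**
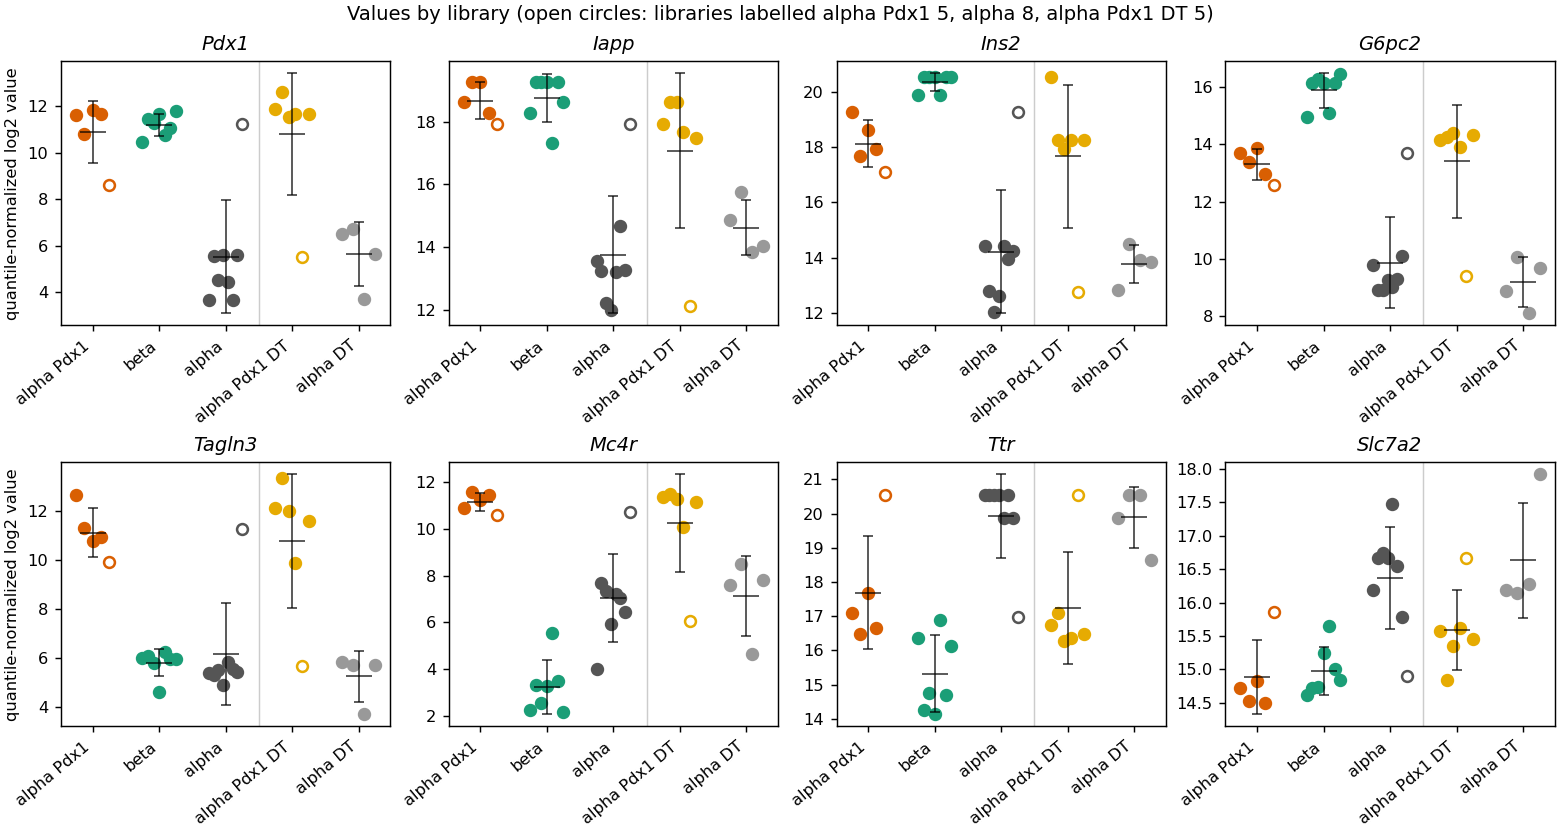
Quantile-normalized log2 values of 8 genes in every library of the 5 groups, with the mean and SD as bars. Open circles are the libraries labelled alpha Pdx1 5, alpha 8 and alpha Pdx1 DT 5. In Pdx1, Iapp, Ins2, G6pc2, Tagln3 and Mc4r the open alpha circle lies among or near the alpha Pdx1 values.

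The beta-like risers included the genes of amylin and of insulin, described first because they are defining products of beta-cells. Iapp (chr6:142298423-142303961, plus strand) had values of 18.63, 19.27, 19.27, 18.27 and 17.92 in alpha Pdx1, against 12, 13.25 and 17.92 as the lowest, median and highest in alpha. Only the library labelled alpha 8 reached the lowest alpha Pdx1 value, and the other alpha libraries ended at 14.69. Iapp was higher by 4.91 ± 0.89 (adjusted p = 0.00297), to a mean of 18.67 beside 18.76 in beta, while Slco1a5, which overlaps it on the opposite strand, was higher by 2.23. Because the counting is not stated to use strand, reads of overlapping genes cannot be told apart. The same holds for Trpm5, Pcx, Junb, Notch1, Sorcs2, Ryr3 and Scn9a, which also overlap a gene on the opposite strand. Ins2, the ancestral insulin gene, had 19.27, 17.68, 18.63, 17.92 and 17.09 in alpha Pdx1, against 12.04, 14.11 and 19.27 in alpha. The groups overlapped at the library labelled alpha 8 alone, since the next alpha value was 14.42. Ins2 rose by 3.89 ± 0.97 (adjusted p = 0.0202) and by 4.87 ± 0.85 without the libraries labelled alpha Pdx1 5 and alpha 8 (adjusted p = 0.000753). The Ins2 mean in alpha Pdx1 (18.12) was 2.23 below that in beta (20.35), a difference that missed the threshold (adjusted p = 0.0885).

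Ins1 (chr19:52264297-52265476, plus strand) had 17.68, 17.47, 17.47, 19.27 and 15.11 in alpha Pdx1, against 11.61, 13.15 and 18.27 in alpha. Its difference of 3.71 ± 1.09 missed the threshold with all libraries (adjusted p = 0.0524) and was 4.94 ± 1.03 without the libraries labelled alpha Pdx1 5 and alpha 8 (adjusted p = 0.00404). Ins1 is a close copy of Ins2, so reads may have been shared between them. Its level stayed 4.58 below beta (adjusted p = 0.00271). In these bulk samples, fewer cells of a type and less RNA per cell cannot be told apart.

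Pdx1 itself is left out of the counts here, since the transgene sets it. Of the other 24 beta-cell identity genes tested, 7 rose, none fell and 17 did not pass, and their median difference was 0.85, where 2.36% of all tested genes rose and the median was 0.03. The count was 9 of 24 without the libraries labelled alpha Pdx1 5 and alpha 8, with Ins1 and Ffar1 added, and 12 without the 5 doubted libraries (3.71% of all rose). G6pc2, the islet form of the glucose-6-phosphatase catalytic subunit, had 13.70, 13.37, 13.88, 12.99 and 12.58 in alpha Pdx1, against 8.92, 9.28 and 13.70 in alpha. Every alpha library but the one labelled alpha 8 lay at or below 10.10, and the gene rose by 3.43 ± 0.74 (adjusted p = 0.00918). Papss2, which makes the donor for sulfation, rose by 3.05 ± 0.58 (adjusted p = 0.00369), and Ppp1r1a, an inhibitor of protein phosphatase 1, by 3.98 ± 0.82 (adjusted p = 0.0067). Trpm5, a calcium-activated cation channel, rose by 2.43 to a mean of 7.41, still 5.99 below beta. Ero1lb, an oxidase that helps proinsulin form its disulfide bonds, rose by 1.29 (adjusted p = 0.0313), to 14.06 in alpha Pdx1, against 17.11 in beta and 12.77 in alpha.

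Other members of the same identity list did not pass with all libraries. Mafa, the maturity factor of beta-cells, had values from 0.76 to 1.28 in alpha Pdx1 and from 0.76 to 1.95 in alpha, near the bottom of the scale, with a mean of 7.61 in beta. Nkx6-1, a beta-cell homeodomain factor, averaged 5.78 in alpha Pdx1, 11.80 in beta and 6.18 in alpha (adjusted p = 0.664 against alpha). Slc2a2, the glucose transporter GLUT2 and a textbook Pdx1 target, averaged 6.22 in alpha Pdx1, 14.79 in beta and 6.39 in alpha (adjusted p = 0.91 against alpha). The prolactin receptor gene Prlr averaged 7.30, 14.71 and 6.96 in the same order, and the granule gene Sytl4 5.05, 13.51 and 5.43. Ucn3, a peptide of mature beta-cells, had 8.82, 7.92, 8.18, 8.04 and 7.09 in alpha Pdx1, against 2.81, 6.77 and 8.46 in alpha. Its difference of 1.63 ± 0.84 did not pass (adjusted p = 0.318), though it did without the 5 doubted libraries (2.16, adjusted p = 0.0231), and its level with all libraries was 6.90 below beta (adjusted p = 5.6e-07). Slc30a8, the granule zinc transporter, averaged 14.77 in alpha Pdx1, 15.47 in beta and 15.13 in alpha. Among 8 textbook Pdx1 targets tested other than Pdx1, 2 rose and none fell, where 2.36% of all tested genes rose. Without the libraries labelled alpha Pdx1 5 and alpha 8, 3 rose (3.15% of all rose).

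**Figure D3:**
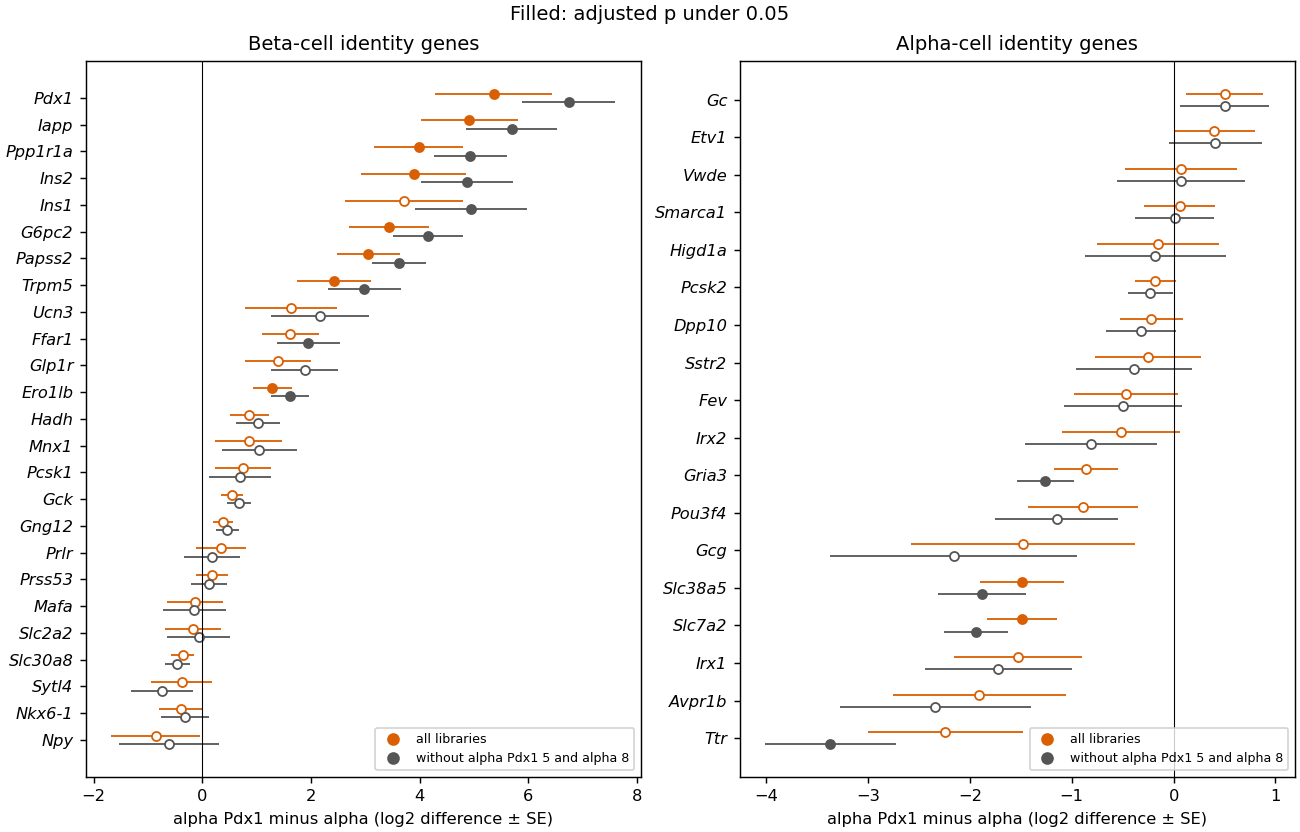
Log2 differences (alpha Pdx1 minus alpha, ± SE) of the beta- and alpha-cell identity genes, with all libraries in orange and without the libraries labelled alpha Pdx1 5 and alpha 8 in grey. Filled points passed the threshold. Pdx1, Iapp, Ppp1r1a, Ins2, G6pc2, Papss2, Trpm5 and Ero1lb are filled in both fits, while Mafa, Slc2a2 and Nkx6-1 lie near 0.

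Named receptor and channel genes of the beta-like risers included Adra2a and Chrm3. Adra2a, the adrenergic receptor that restrains insulin release, had 8.67, 8.68, 9.20, 9.01 and 8.41 in alpha Pdx1, against 0.76, 5.37 and 9.34 in alpha. It passed narrowly (3.70 ± 1.09, adjusted p = 0.0496) and in 9 of the 23 alternative settings. Chrm3, the muscarinic receptor through which acetylcholine raises insulin release, rose by 3.31 ± 0.62 (adjusted p = 0.00272). These were the only risers among 25 receptor genes tested, and none fell, where 2.36% of all tested genes rose. Kcnip1, a partner of voltage-gated potassium channels, rose by 3.86 ± 0.74 (adjusted p = 0.00386). Kcnmb1, a subunit of the calcium-activated potassium channel, overlaps Kcnip1 on the opposite strand, is named for that overlap, and rose by 3.37. Myo3a, an unconventional myosin, had 9.58, 10.85, 10.07, 10.45 and 9.74 in alpha Pdx1, against 4.04, 6.02 and 10.25 in alpha. It rose by 4.0 ± 0.72 (adjusted p = 0.00239), to a mean of 10.14 that was 2.25 above beta (adjusted p = 0.0194). The largest difference by the naming rule was 5.85 ± 1.08 for B830017H08Rik, to 9.15 in alpha Pdx1, against 10.85 in beta and 3.30 in alpha. Its lowest alpha value was 1.12, near the bottom of the scale, and its difference ran from 2.75 to 6.97 over the alternative settings.

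Over all tested genes 2.36% rose and 1.98% fell, and a count of 1 in a list of this size is near those shares. Of 23 genes of glucose metabolism, 3 rose and none fell. They were G6pc2, Slc5a1 and Pcx, the last being pyruvate carboxylase, which refills the citric acid cycle and rose by 1.37 ± 0.30 (adjusted p = 0.0086). Mlxipl, the glucose-responsive factor ChREBP, was chosen after its values were seen. It averaged 13.42 in alpha Pdx1, 14.55 in beta and 9.93 in alpha, and rose by 3.49 ± 0.74 (adjusted p = 0.00797). Of 26 granule, processing and exocytosis genes, 1 rose and 2 fell. Scg2, a granin of the dense-core granule, rose by 1.70 ± 0.31 (adjusted p = 0.00239). Scg5, the chaperone of the prohormone convertase PC2, fell by 0.64, and Pcsk1n, which encodes a peptide inhibitor of prohormone convertase 1, fell by 0.89 (adjusted p = 0.0475). Pcsk1n did not pass without the libraries labelled alpha Pdx1 5 and alpha 8 (adjusted p = 0.0558), and passed in 9 of the 23 alternative settings. Without those libraries 2 genes of the list rose and 1 fell. Of 25 genes of the unfolded protein response, 2 rose and none fell, with 22 of 25 above 0 and a median of 0.37, where 8820 of all 16633 tested genes lay above 0. These were the chaperone partners Dnajb9, higher by 1.21 (adjusted p = 0.00604), and Dnajc3, higher by 0.59 (adjusted p = 0.0306). Of 27 islet transcription factors other than Pdx1, 1 rose, Glis3, and none fell. Glis3, a zinc-finger factor at the insulin gene, rose by 0.98 ± 0.24 (adjusted p = 0.0159).

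Of 18 alpha-cell identity genes tested, 2 fell, none rose and 16 did not pass, with a median of -0.50. Over all tested genes 1.98% fell and the median was 0.03. Slc7a2, a carrier of arginine and other cationic amino acids, had 14.72, 14.52, 14.83, 14.50 and 15.86 in alpha Pdx1, against 14.90, 16.61 and 17.47 in alpha. The highest alpha Pdx1 value belonged to the library labelled alpha Pdx1 5 and the lowest alpha value to the one labelled alpha 8. Slc7a2 fell by 1.49 ± 0.34 on the log2 scale (adjusted p = 0.0105), to the beta level (14.88 in alpha Pdx1, 14.97 in beta, 16.37 in alpha). Slc38a5, a glutamine carrier of alpha-cells, fell by 1.49 ± 0.41 (adjusted p = 0.0301).

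Without the libraries labelled alpha Pdx1 5 and alpha 8 the list had 4 fallers, with Ttr and Gria3 added (1.93% of all tested genes fell). Without the 5 doubted libraries it had 7, with Irx1, Irx2 and Avpr1b also added (2.96% of all fell), and with Rn18s-rs5, a copy of the 18S ribosomal RNA, as a covariate it had none (0.168% of all fell). Ttr, which encodes transthyretin, had 17.09, 16.47, 17.68, 16.66 and 20.54 in alpha Pdx1, against 16.98, 20.54 and 20.54 in alpha. The 2 values out of place, 20.54 and 16.98, were those of the libraries labelled alpha Pdx1 5 and alpha 8. With all libraries Ttr did not pass (-2.24 ± 0.76, adjusted p = 0.0964), and without these it was lower by 3.37 ± 0.64 (log2 difference -3.37, adjusted p = 0.00164).

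The glucagon gene and the factors Irx1 and Irx2 did not pass with all libraries. Gcg had 19.87, 18.63, 22.56, 20.54 and 22.56 in alpha Pdx1, against 20.54 in the library labelled alpha 8 and the ceiling of 22.56 in the other 7. Its rank in a library ran from 1 to 5 in alpha Pdx1, and its difference of -1.48 ± 1.10 did not pass (adjusted p = 0.541). Irx1, an Iroquois homeobox factor of alpha-cells, had 10.44, 9.50, 9.36, 9.35 and 10.24 in alpha Pdx1, against 10.67, 11.38 and 11.92 in alpha. These values did not overlap, but how many of all tested genes do not overlap was not counted. The fit across all groups did not call Irx1 (-1.53 ± 0.63, adjusted p = 0.19), where 4.33% of all tested genes were called in either direction. That fit shares 1 spread over the 5 groups. The SD of Irx1 was 0.52 in alpha Pdx1, 0.48 in alpha and 2.16 in beta. Its relative Irx2 differed by -0.52 ± 0.58 (adjusted p = 0.715). Without the libraries labelled alpha Pdx1 5 and alpha 8, neither passed. Irx1 then differed by -1.72 ± 0.72 (adjusted p = 0.196) and Irx2 by -0.81 ± 0.65 (adjusted p = 0.594). Without the 5 doubted libraries both passed, Irx1 with -1.72 ± 0.27 (adjusted p = 6.05e-05) and Irx2 with -0.81 ± 0.23 (adjusted p = 0.0251). Gcg did not pass there (-2.16 ± 0.71, adjusted p = 0.0751). Irx1 passed in 3, Irx2 in 1 and Gcg in 0 of the 23 alternative settings. In beta the SD was 2.0 for Irx2 and 3.21 for Gcg. A miss does not show that these genes were kept, and its cause was not tested.

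Among the alpha-loss fallers, named genes outside the identity list included Upk3a, a uroplakin. Upk3a had 5.45, 7.05, 5.65, 6.74 and 9.17 in alpha Pdx1, against 5.80, 11.35 and 11.98 in alpha. It fell by 3.79 ± 1.01 on the log2 scale (adjusted p = 0.0277), and the library labelled alpha 8 gave the 5.80, with the other alpha libraries from 10.21. Gfra3, the receptor subunit for artemin, fell by 2.30 ± 0.61 (adjusted p = 0.0248), to the level of beta. Sorcs2, a receptor of the sortilin family, and Cryba2, a crystallin, were chosen after their values were seen. Sorcs2 fell by 1.73 (adjusted p = 0.0248) and Cryba2 by 1.68 (adjusted p = 0.0188).

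With all libraries, 107 of the 329 fallers (32.5%) were protein-coding genes and 178 (54.1%) pseudogenes. Without the libraries labelled alpha Pdx1 5 and alpha 8, 160 of 320 were protein-coding and 111 (34.7%) pseudogenes, and without the 5 doubted libraries 230 of 488 (47.1%) and 189 (38.7%). By GENCODE vM21 annotation with all libraries, 72 of the 122 alpha-loss fallers (59.0%) and 104 of the 197 fallers that did not differ in beta (52.8%) were pseudogenes, against 3.18% of the beta-like risers and 10.6% of all genes tested. Among the alpha-loss fallers the pseudogene share was 35.4% of 158 without the libraries labelled alpha Pdx1 5 and alpha 8, and 34.3% of 274 without the 5 doubted libraries. Of the 1761 pseudogenes tested, 178 fell (10.1%) and 11 rose (0.625%), and their median difference was -0.46. Of the 12398 protein-coding genes, 107 fell (0.863%) and 333 rose (2.69%), with a median of 0.06. Rpl30-ps1, a processed copy of a ribosomal protein gene, had 10.19, 9.91, 10.20, 10.15 and 10.90 in alpha Pdx1, against 10.98, 12.74 and 13.32 in alpha. Rpl30-ps1 fell by 2.09 ± 0.44 on the log2 scale (adjusted p = 0.00632). The alpha group was spread, with 11.38, 10.98 and 11.65 in the libraries labelled alpha 1, alpha 2 and alpha 5. The other alpha libraries had 12.72 or more. Gm10247, another processed pseudogene, fell by 2.21 (adjusted p = 0.00297).

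Ribosomal protein genes and their pseudogenes were counted apart. Of 156 ribosomal protein pseudogenes recognised by symbol, 38 fell (24.4%) and none rose, with a median of -0.89. Of all tested genes 1.98% fell, and of all pseudogenes 10.1%. Of 81 protein-coding ribosomal protein genes 1 fell (1.23%) and none rose, with a median of -0.13, a count near the share of all tested genes. A pseudogene and its parent are near copies, so their reads may have been split between them and these values are uncertain. Rn18s-rs5 also fell. It had 18.27, 17.09, 17.31, 16.98 and 16.90 in alpha Pdx1, against 17.68, 19.57 and 20.54 in alpha (-1.98 ± 0.48, adjusted p = 0.0169). The libraries labelled alpha 1 and alpha 2 lay within the alpha Pdx1 range, at 17.68 and 17.92. With Rn18s-rs5 as a covariate, 86 genes rose (0.517%) and 28 fell (0.168%), among them 10 pseudogenes that fell. Pdx1, Iapp, Tagln3, G6pc2 and Papss2 still passed, while Ins2 (adjusted p = 0.121) and Slc7a2 (adjusted p = 0.119) did not. The Ins2 difference was 4.09 ± 1.26 with the covariate and 3.89 ± 0.97 without it. For Slc7a2 it was -1.43 ± 0.44 and -1.49 ± 0.34. In alpha Pdx1 DT against alpha DT, Rn18s-rs5 was not lower (0.94, adjusted p = 0.402).

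**Figure D4:**
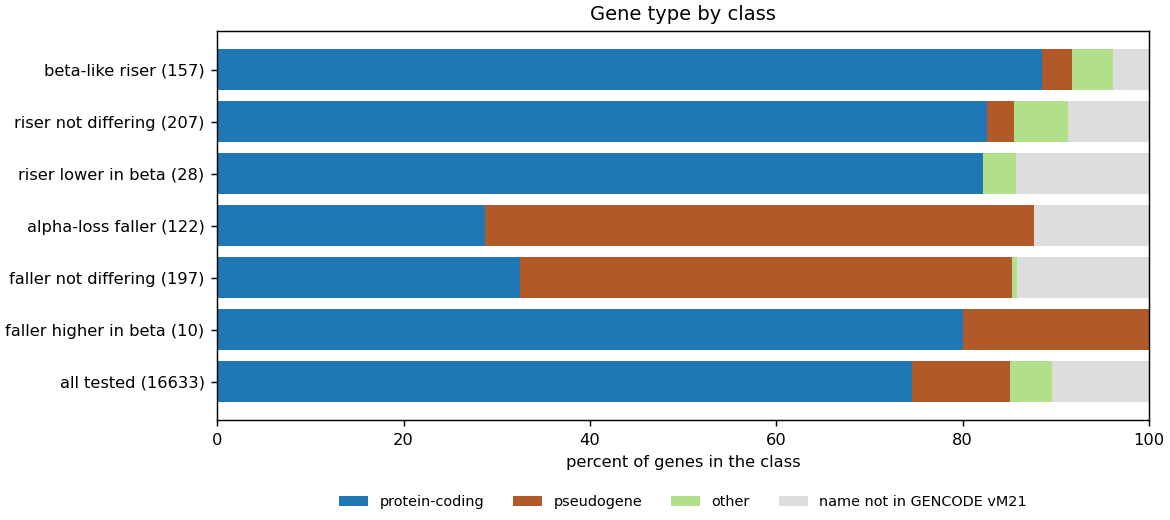
Share of genes of each GENCODE vM21 type, in percent, in the 6 classes and among all tested genes, with the number of genes in brackets. Pseudogenes made up 59.0% of alpha-loss fallers and 3.18% of beta-like risers.

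Protein-coding risers also spanned more of the genome. Their median gene length from first to last annotated base was 66.4 kb, against 24.9 kb over all protein-coding genes tested and 23.6 kb for protein-coding fallers. By class it was 60.4 kb for beta-like risers, 61.7 kb for risers that did not differ in beta, 150.0 kb for risers lower in beta and 18.1 kb for alpha-loss fallers.

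Of the 392 risers, 235 were not higher in beta by the sorting rule, among them Tagln3 and Tac1. Tagln3 (chr16:45711230-45724608, minus strand) had 12.66, 11.29, 10.76, 10.92 and 9.93 in alpha Pdx1, against 4.92, 5.49 and 11.26 in alpha. Only the library labelled alpha 8 reached the alpha Pdx1 range, and the next alpha value was 5.86. Tagln3 rose by 4.95 ± 0.97 (adjusted p = 0.00462), and its alpha Pdx1 mean of 11.11 was 5.29 above beta (adjusted p = 0.000163). Tac1, which encodes substance P and neurokinin A, had 10.60, 9.76, 7.48, 9.16 and 8.35 in alpha Pdx1, against 1.94, 3.80 and 8.27 in alpha. The library labelled alpha 8 gave the 8.27, with the others at or below 5.36, and Tac1 rose by 4.99 ± 0.90 (adjusted p = 0.00239). Of 22 neuronal and cytoskeletal genes tested, 4 rose and none fell, with a median of 0.16, where 2.36% of all tested genes rose. The count was 3 without the libraries labelled alpha Pdx1 5 and alpha 8. Besides Tagln3 these included Gap43, a protein of growing axons, higher by 3.24 ± 0.91 (adjusted p = 0.0365), and Dclk1, a microtubule-binding kinase, higher by 1.86 ± 0.46 (adjusted p = 0.0179). A peptide gene of the gut and islet, Pyy, reached 20.54, 22.56, 20.54, 22.56 and 18.27 in alpha Pdx1, against 16.14, 16.90 and 22.56 in alpha. The alpha ceiling value was that of the library labelled alpha 8. Pyy did not pass with all libraries (3.23 ± 1.04, adjusted p = 0.0771) and did without the libraries labelled alpha Pdx1 5 and alpha 8 (4.59 ± 0.90, adjusted p = 0.00236). Of 17 peptide hormone genes 3 rose (Tac1, Iapp and Ins2) and none fell, and 5 rose without those libraries.

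Single members of the glucose and ion channel lists were also among the risers not higher in beta by the sorting rule. Slc5a1, the sodium-glucose cotransporter SGLT1, had 10.13, 10.01, 10.62, 10.38 and 9.61 in alpha Pdx1, against 2.62, 4.96 and 11.00 in alpha. Apart from the library labelled alpha 8, no alpha library exceeded 5.63, and the difference was 4.78 ± 0.98 (adjusted p = 0.00615). Slc5a1 averaged 7.04 in beta, with a lowest value of 6.12, and 4.57 in alpha without the library labelled alpha 8. With that library its beta minus alpha difference was 1.67 (adjusted p = 0.152), which missed the sorting rule. Ryr3, a calcium release channel, rose by 3.55 ± 0.68 (adjusted p = 0.00368), to 11.51 in alpha Pdx1, against 7.90 in beta and 7.95 in alpha. Scn9a, the sodium channel Nav1.7, rose by 1.11 ± 0.22 (adjusted p = 0.00398). With Trpm5 these were the 3 risers among 26 ion channel genes tested, none of which fell. Of all tested genes 2.36% rose. Inpp4b, a phosphoinositide phosphatase, rose by 4.68 ± 1.09 (adjusted p = 0.0147), and Lrtm1, a leucine-rich repeat membrane protein, by 5.04 ± 1.06 (adjusted p = 0.0067). Inpp4b averaged 9.29 in beta and 6.49 in alpha without the library labelled alpha 8. With that library its beta minus alpha difference of 2.07 also missed the sorting rule (adjusted p = 0.111). Lrtm1 lies within Cacna2d3 on the opposite strand, which itself rose by 3.74, and Inpp4b overlaps Gm17072 on the same strand, which rose by 4.62. Dclk1 likewise overlaps Gm19817.

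A group of 28 risers went against the beta-cell direction, with median levels of 10.51 in alpha Pdx1, 5.76 in beta and 8.10 in alpha. Mc4r, a melanocortin receptor best known in the hypothalamus, had 10.88, 11.58, 11.24, 11.43 and 10.61 in alpha Pdx1, against 4.02, 7.13 and 10.72 in alpha. The alpha values other than that of the library labelled alpha 8 ended at 7.69. Mc4r rose by 4.10 ± 0.87 (adjusted p = 0.00768), and its alpha Pdx1 level was 7.92 above beta (adjusted p = 9.45e-08). Fgl2, a fibrinogen-like protein, had 12.82, 13.79, 13.68, 13.88 and 13.66 in alpha Pdx1, against 9.73, 10.34 and 13.60 in alpha. It rose by 2.78 ± 0.50 (adjusted p = 0.00268), where beta averaged 9.26. St8sia2, a polysialyltransferase that modifies neural adhesion molecules, rose by 2.58 ± 0.53 (adjusted p = 0.00604). Pld5, a member of the phospholipase D family, rose by 3.18 ± 0.53 (adjusted p = 0.00157), and the solute carrier Slc35f4 by 2.87 ± 0.56 (adjusted p = 0.00368).

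Of the 207 fallers that were not alpha-loss fallers, 106 (51.2%) were pseudogenes with all libraries, and 55 of 162 (34.0%) were without the libraries labelled alpha Pdx1 5 and alpha 8. One was Glud-ps, a copy of the glutamate dehydrogenase gene. Glud-ps had 7.39, 7.99, 7.94, 7.85 and 8.46 in alpha Pdx1, against 8.86, 10.28 and 11.08 in alpha. The gene fell by 2.15 ± 0.32 on the log2 scale (adjusted p = 0.000756). The libraries labelled alpha 1 and alpha 2 had 8.89 and 8.86, and the other alpha libraries 10.06 or more. The next 3 genes, all protein-coding, were chosen after their values were seen. Pgf, a growth factor of the VEGF family, fell by 1.79 ± 0.32 (adjusted p = 0.00217), Cbs, which makes cystathionine, by 1.62 ± 0.35 (adjusted p = 0.00744), and Il6ra, the interleukin-6 receptor, by 1.35 ± 0.26 (adjusted p = 0.00297). Of the 10 fallers that beta held higher, Itpr3, a calcium release channel of the endoplasmic reticulum, fell by 0.73 (adjusted p = 0.0174), and Glul, glutamine synthetase, by 0.90 (adjusted p = 0.0335). Of 16 Notch pathway genes tested, 2 fell and none rose, where 1.98% of all tested genes fell. Heyl, a transcriptional effector of Notch, was sorted as an alpha-loss faller. Heyl had 1.43, 2.79, 1.93, 3.06 and 3.35 in alpha Pdx1, against 2.96, 6.47 and 7.18 in alpha, and fell by 3.49 ± 0.73 on the log2 scale (adjusted p = 0.00604). Its alpha Pdx1 values lay near the bottom of the scale, and its difference ran from -4.16 to -0.99 over the alternative settings. The receptor gene Notch1 fell by 0.66 ± 0.15 (adjusted p = 0.00918). Of 22 immediate early genes 1 rose and 1 fell, with a median of -0.40, counts near the shares of all tested genes (2.36% and 1.98%). Ier5, sorted as a beta-like riser, rose by 1.89 ± 0.35 (adjusted p = 0.00239). Junb, a subunit of AP-1 sorted as an alpha-loss faller, fell by 1.44 ± 0.37 (adjusted p = 0.0196).

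Lists for other states and cell types held no gene past the threshold with all libraries, where 2.36% of all tested genes rose and 1.98% fell. In lists this small, a count of 0 or 1 is near those shares. The lists were 13 progenitor genes (median -0.47), 19 genes that beta-cells normally keep off (-0.07), 6 delta- and PP-cell markers (-0.37), 7 ductal (-0.38), 4 endothelial (0.13), 7 mesenchymal (-0.09), 3 Schwann-cell (-0.08), 12 leukocyte (-1.05) and 19 acinar markers (-3.19). In these lists, 1 progenitor gene fell without the libraries labelled alpha Pdx1 5 and alpha 8 (1.93% of all tested genes fell). Without the 5 doubted libraries 4 progenitor genes and the ductal keratin gene Krt19 (-3.0) fell, where 2.96% of all tested genes fell. The pancreatic polypeptide gene Ppy (1.43), the collagen gene Col1a2 (1.32) and the hexokinase gene Hk1 (1.11) rose in that fit, where 3.71% of all rose. These 4 named genes were chosen after their values were seen. Sst, the somatostatin gene of delta-cells, averaged 13.63 ± 1.03 in alpha Pdx1 (SD, n = 5) and 14.30 ± 0.93 in alpha (SD, n = 8). Acinar markers, which encode digestive enzymes, lay lower in alpha Pdx1 in 18 of 19 genes. Their summed level ran from 9.93 to 15.45 (log2) in alpha Pdx1 and from 10.93 to 17.52 in alpha, and up to 3 of the 19 were at or below 3 in an alpha Pdx1 library and none in any alpha library. The summed leukocyte level ran from 8.17 to 9.97 in alpha Pdx1 and from 8.70 to 12 in alpha. The part of these levels in the fallers was not tested.

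The alpha Pdx1 DT and alpha DT libraries carry those alleles together with RIP-DTR, after toxin, and their difference was set beside the first. Over all tested genes, 296 were higher (1.78%) and 53 lower (0.319%) in alpha Pdx1 DT. Of the 392 risers, 366 lay above 0 after toxin (93.4%, where 49.8% of all tested genes did) and 98 passed (25%). Of the 329 fallers, 296 lay below 0 (90.0%, where 50.2% of all tested genes did) and 7 passed (2.13%). No gene passed in the opposite direction. Without the library labelled alpha Pdx1 DT 5, 486 genes rose (2.93%) and 497 fell (2.99%) without toxin. Of these, 241 risers (49.6%) and 81 fallers (16.3%) passed after toxin, where 3.96% and 1.64% of all tested genes did in those directions. Of the beta-like risers in that fit, 129 of 208 passed (62.0%), and of the alpha-loss fallers 58 of 231 (25.1%).

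By member, Pdx1 differed by 5.16 after toxin (adjusted p = 0.0259) beside 5.36 without it, and Ins2 by 3.90 (adjusted p = 0.0604) beside 3.89. Tagln3 differed by 5.51 after toxin (adjusted p = 0.00875) beside 4.95, and G6pc2 by 4.22 (adjusted p = 0.00904) beside 3.43. Iapp differed by 2.46 (adjusted p = 0.212) beside 4.91, and by 3.45 without the library labelled alpha Pdx1 DT 5 (adjusted p = 0.00981). Tac1 differed by 0.60 (adjusted p = 0.808) beside 4.99, and Junb, Heyl and Notch1 by 0.36, -0.02 and 0.45 beside -1.44, -3.49 and -0.66. Tac1 averaged 7.84 in alpha Pdx1 DT, 7.23 in alpha DT, 9.07 in alpha Pdx1 and 4.08 in alpha. In the same order Junb averaged 11.21, 10.85, 9.52 and 10.95, Heyl 4.03, 4.06, 2.51 and 6.0, and Notch1 11.13, 10.67, 10.6 and 11.26. The alpha DT means of Tac1, Heyl and Notch1 thus also lay away from those of alpha. A test of the difference between both effects, as the interaction term in limma, passed for 0 genes with all libraries, with 1527 at an unadjusted p under 0.05. For Tac1 the interaction was -4.38 (adjusted p = 0.409) and for Heyl 3.47 (adjusted p = 0.409). A p that misses the threshold does not show that the effects are alike.

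**Figure D5:**
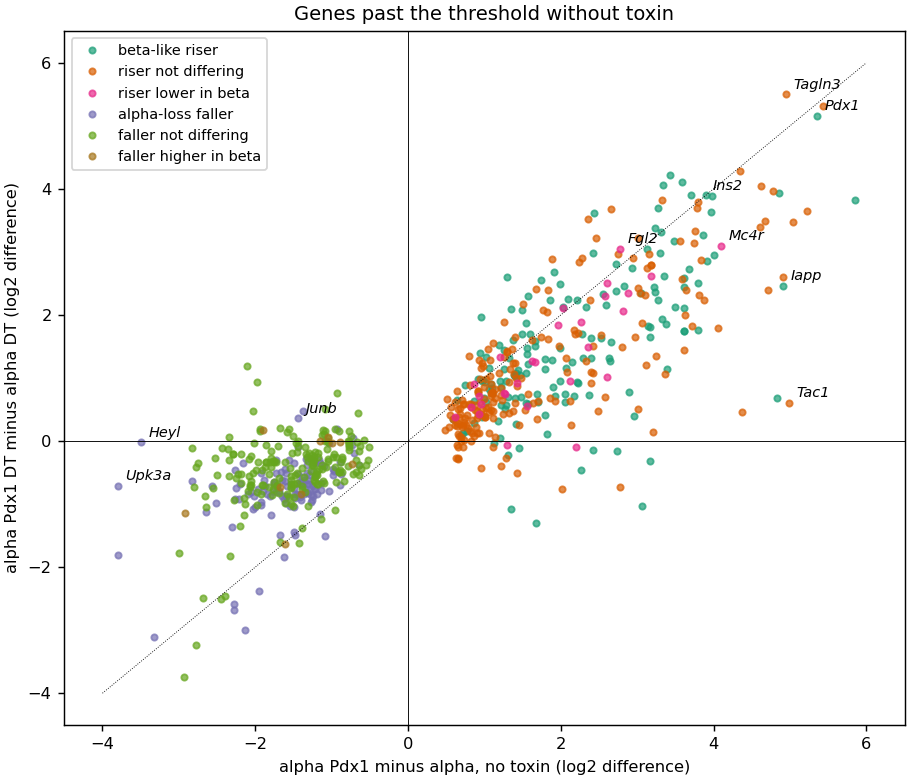
Log2 differences of the 721 genes past the threshold, alpha Pdx1 minus alpha on the horizontal axis and alpha Pdx1 DT minus alpha DT on the vertical axis, coloured by class, with the line of equal differences dotted. Risers (366 of 392) and fallers (296 of 329) mostly kept their sign, while Tac1 and Heyl lie near 0 after toxin.

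The size of the calls depended on single libraries. Leaving out 1 library at a time gave from 300 genes (without alpha Pdx1 4) to 984 genes (without alpha 1) past the threshold. The count was 323 without alpha Pdx1 2, 451 without alpha Pdx1 3 and 446 without alpha 3. Without alpha 2, 539 genes fell, of which 219 were alpha-loss fallers, and without alpha 4 and without alpha 6, each left out alone, 196 and 186 genes fell. Without alpha 8 there were 239 beta-like risers. Beta-like risers then numbered from 93 to 239 and alpha-loss fallers from 32 to 219. Pdx1, Iapp, Tagln3, G6pc2, Papss2, Tac1, Mc4r and Fgl2 passed in all 23 alternative settings, Ins2 in 19 and Slc7a2 in 22.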

How the data were processed

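The deposited table gave log2 values, quantile-normalized by the authors, of 17775 genes in each of 30 libraries. Per the submitters' processing notes, GSNAP and GRCm38 were the aligner and build. Its version, the annotation and how reads were counted are not given in the sources used here. Samples were grouped by their labels. A gene was tested where 4 or more libraries reached 5, which kept 16633 genes and dropped 1142. Limma 3.58.1 (R 4.3.3) fitted a mean for each of the 5 groups over all libraries, using robust variances that follow the intensity, and was tested on simulated data. The gene members, classes and lists were chosen with earlier results of these data known. Named genes were the given markers (Pdx1, Iapp, Ins2, Tagln3), a fixed set of islet genes, the largest differences in each class among genes above the median level and on 1 side of the alpha mean in every alpha Pdx1 library, and, for each list, at most 3 genes that rose and 3 that fell (2 where none passed). Some genes of the set and lists are not reported here. Genes named otherwise are said to be chosen after their values were seen. Gene types and coordinates came from GENCODE vM21 by symbol, and promoter windows from RefSeq. Alternatives covered filters, variance settings, an offset of 64, library weights, an Rn18s-rs5 covariate, sorting choices and leaving out libraries. Read depth per library was not known, so no counting intervals are given.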

Additional observations from a re-analysis of the deposited data

Results flagged for a closer look

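Single libraries lay far from the rest of their group (by Dixon's ratio of the gap to the nearest other library over the group's range) in many named genes. Chance gives about 1 in 20 groups such a value. The library labelled alpha 8 was the highest of the 8 alpha libraries, at 11.23 for Pdx1, 17.92 for Iapp, 19.27 for Ins2, 11.26 for Tagln3, 13.70 for G6pc2, 13.15 for Papss2 and 13.21 for Ppp1r1a. It was likewise highest at 10.94 for Kcnip1, 10.25 for Myo3a, 9.40 for B830017H08Rik, 13.96 for Mlxipl, 9.70 for Pcx, 16.66 for Scg2, 10.96 for Ier5 and 9.72 for Kcnmb1. Outside the beta-like class it was highest at 9.95 for Lrtm1, 11.00 for Slc5a1, 12.31 for Inpp4b, 12.22 for Ryr3, 12.55 for Scn9a, 9.11 for Gap43, 11.31 for Dclk1, 10.61 for Pld5, 13.60 for Fgl2 and 22.56 for Pyy. The same library was the lowest at 20.54 for Gcg, 16.98 for Ttr, 11.13 for Gria3, 5.80 for Upk3a, 6.66 for Gfra3, 2.96 for Heyl and 7.81 for Pgf. In each of these genes it lay towards the alpha Pdx1 values.

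The library labelled alpha Pdx1 5 was the lowest of its 5 libraries at 12.60 for Papss2 and 6.96 for Chrm3, and the highest at 15.86 for Slc7a2, 10.90 for Rpl30-ps1 and 10.51 for Sorcs2. In all 5 it lay towards the alpha values. Elsewhere, the library labelled alpha Pdx1 1 was lowest for Fgl2 at 12.82, alpha Pdx1 2 was lowest for Glul at 9.82, and alpha 7 was lowest for Pcsk1n at 12.96.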

How the results depend on the processing

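No paired analysis was possible because the replicate numbers were given in accession order and pair no samples. Filters, the variance settings, the offset and the fit of these groups alone kept the counts past the threshold, of risers, fallers, beta-like risers, alpha-loss fallers and neither within 1.5 times. Of the smaller classes, fallers higher in beta numbered 5 with the offset, against 10, and fallers not differing 129 in these groups alone, against 197. Library weights gave 3110 genes past the threshold (1527 rose, 1583 fell, with 419 beta-like risers, 551 alpha-loss fallers and 2140 neither), and the Rn18s-rs5 covariate 114 (86, 28, 48, 14 and 52 in the same order). Without the 5 doubted libraries 1098 passed (610 rose), with 298 beta-like risers and 274 alpha-loss fallers. Without the libraries labelled alpha Pdx1 5 and alpha 8 there were 249 beta-like risers. Without the library labelled alpha Pdx1 DT 5, 497 genes fell, 231 of them alpha-loss fallers. Sorting by beta minus alpha DT gave 79 alpha-loss fallers, and a cut of 2 gave 94 beta-like risers and 34 alpha-loss fallers. The cause of these shifts was not tested. Leaving out 1 library at a time gave 300 to 984 genes past the threshold, 203 to 535 risers, 97 to 539 fallers, 93 to 239 beta-like risers, 32 to 219 alpha-loss fallers and 168 to 639 neither. Of the genes past the threshold, 105 also passed in the same direction in alpha Pdx1 DT against alpha DT. That count was 322 without the library labelled alpha Pdx1 DT 5, 206 without those labelled alpha Pdx1 5 and alpha 8, and 462 without the 5 doubted libraries, where the interaction passed for 1 gene. No named gene reversed its direction among results that passed in either fit. Read depth is not known from these values, so how far it limits low values, such as those of Mafa, cannot be given.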
